A study of Mus musculus with 20 samples.

Results

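Txnip, Btg1, Btg2, Cd7, Vps37b and Tspan32 are 6 genes linked with the resting state of T cells, here followed in mouse CD8 T cells from before stimulation to 72 h of culture. They were listed by symbol, as antiproliferative or naive-state genes, and were chosen partly by their measured signals in stimulated cells relative to naive cells. Their own differences from naive cells are therefore given as descriptions, without a test. The 6 genes stand among 8251 genes with a single symbol on the array. They have 7 probe sets (Txnip has a pair), and all 6 are among the 6279 genes kept by the filter on low values. The cells were CD44lo CD8+ lymphocytes from lymph nodes of C57Bl6 mice aged 6 to 8 weeks that carry the OT-1 TCR transgene, a receptor for an ovalbumin peptide on H-2Kb. Cells were cultured on latex beads that displayed the peptide complex (antigen, Ag) and the costimulatory protein B7-1. Murine IL-12 (Ag-B7+IL12), universal type I interferon (Ag-B7+IFNa/b) or trichostatin A, a histone deacetylase inhibitor (Ag-B7+TSA), was added to some cultures, and the others had Ag-B7 alone. Every culture also held human IL-2, and no culture without antigen was analysed here, so time in culture and stimulation cannot be told apart. Of the 20 arrays, 4 groups were replicated: Ag-B7+IL12 at 48 h (3 arrays), Ag-B7+IFNa/b at 48 h (3 arrays), Ag-B7 at 48 h (4 arrays) and naive cells at 0 h (3 arrays). The other 7 groups had 1 array each: Ag-B7+IL12, Ag-B7+IFNa/b and Ag-B7 at 24 h, the same 3 treatments at 72 h, and Ag-B7+TSA at 72 h.

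A naive T cell is small, divides rarely and holds its growth pathways in check, and several of the 6 proteins belong to that restraint. BTG1 and BTG2 are antiproliferative proteins that bring the CCR4-NOT deadenylase to mRNAs and are known to help keep T cells quiescent. TXNIP, an alpha-arrestin, binds thioredoxin and lowers glucose uptake by removing glucose transporters from the cell surface. VPS37B is a subunit of ESCRT-I, a complex that sorts ubiquitinated membrane proteins into vesicles of the endosome. CD7 is an immunoglobulin-superfamily receptor of T and NK cells, and TSPAN32 (also known as TSSC6) is a tetraspanin of blood cells, which in mice limits T cell proliferation.

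The sequences upstream of the transcription start were examined because genes of this kind are known targets of transcription factors that respond to nutrients and growth signals. RefSeq promoter windows on GRCm38.p6 existed for 4 of the 6 genes, and 250 bases before the start were searched on both strands. The 3 windows with a match are printed below 5′ to 3′ on the strand of the gene, with the matched letters in capitals. Txnip lies at chr3:96557707-96557956 on the plus strand, Btg1 at chr10:96616751-96617000 on the plus strand and Btg2 at chr1:134079156-134079405 on the minus strand.
Txnip: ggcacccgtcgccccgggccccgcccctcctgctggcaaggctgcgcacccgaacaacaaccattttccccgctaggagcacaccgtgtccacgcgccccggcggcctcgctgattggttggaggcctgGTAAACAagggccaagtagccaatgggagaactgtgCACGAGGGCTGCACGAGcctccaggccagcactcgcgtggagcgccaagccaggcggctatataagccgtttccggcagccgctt
Btg1: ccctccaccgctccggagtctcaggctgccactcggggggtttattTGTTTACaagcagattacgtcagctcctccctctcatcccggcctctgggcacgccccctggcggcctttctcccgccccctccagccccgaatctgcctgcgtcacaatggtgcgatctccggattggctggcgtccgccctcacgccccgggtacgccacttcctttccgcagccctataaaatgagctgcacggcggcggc
Btg2: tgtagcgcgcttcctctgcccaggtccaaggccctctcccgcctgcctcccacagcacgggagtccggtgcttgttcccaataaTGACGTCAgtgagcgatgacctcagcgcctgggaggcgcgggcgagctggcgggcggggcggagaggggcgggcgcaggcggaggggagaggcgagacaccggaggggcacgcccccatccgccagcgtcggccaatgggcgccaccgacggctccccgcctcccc
The forkhead core GTAAACA stood 121 to 115 bases before the start of Txnip and, as its reverse complement, 204 to 198 bases before that of Btg1. FOXO factors, which bind such letters, are known to maintain naive T cells. The same letters occurred in 1040 of 32851 windows of this length (3.17%). The cAMP response element TGACGTCA stood 166 to 159 bases before the start of Btg2, and 508 windows held it (1.55%). A pair of CACGAG with 5 bases between them, read on either strand, was taken from what is known of the Txnip promoter, where the glucose-sensing MondoA and MLX proteins bind such spaced letters. It stood 85 to 69 bases before the start of Txnip, and no other of the 32851 windows held it. As the letters came from this promoter, the match was to be found there, and its rarity elsewhere is no test. The E-box CACGTG was found in none of the 4 windows, against 1978 windows in all (6.02%), and the Tspan32 window held none of the 4 patterns. The 4 patterns do not overlap one another in these windows. Such matches describe letters, and binding was not measured.

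Array quality differed between naive and stimulated cells, and also among the naive arrays. Replicate arrays of the stimulated groups correlated at 0.948 to 0.966 over genes, and naive arrays at 0.827 to 0.932. The ratio of 3' to 5' actin signal, a measure of RNA integrity, was 1.00 to 1.15 on the 17 stimulated arrays. On naive replicates 1, 2 and 3 it was 1.13, 2.06 and 1.61. Replicates 2 and 3 were thus both above the stimulated range, and values given without replicate 2 still include replicate 3. A list of 11 T cell genes, among them Cd8a and Cd8b1, was summed at 0 h and 48 h. The sums at 48 h were 75997 to 96604 in Ag-B7+IL12, 73934 to 92759 in Ag-B7+IFNa/b and 85370 to 107960 in Ag-B7. In naive cells they were 78104 to 139668. Of the 11 genes, 2 rose and 3 fell in Ag-B7 at 48 h against naive cells (limma, adjusted p below 0.05). Of 23 tested genes listed as markers of other cells (6 lists), 16 fell and 2 rose in Ag-B7 at 48 h against naive cells (limma, adjusted p below 0.05). Without naive replicate 2, 12 fell. The 2 that rose were Klrk1 of the NK list and H2-Ab1 of the B cell list. Whether the CD8 T cells themselves expressed them was not tested. With each array centred on its median 10 fell and 2 rose, and with scaling to the spiked hybridisation controls 2 fell and 5 rose. The summed signals in Ag-B7 at 48 h against naive cells were 2555 to 5218 against 14248 to 18403 for 12 myeloid genes, and 491 to 905 against 7397 to 15302 for 4 erythroid and platelet genes. They were 6705 to 12976 against 13647 to 17525 for 10 B cell genes, 2141 to 3297 against 4707 to 12154 for 8 stromal genes, 140 to 805 against 654 to 1644 for 3 CD4 and gamma-delta genes, and 275 to 2220 against 242 to 454 for 3 NK genes. The part of these markers and of RNA integrity in the differences from naive cells was not tested. Fewer cells of a type and less RNA per cell cannot be told apart in such bulk samples.

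**Figure D1:**
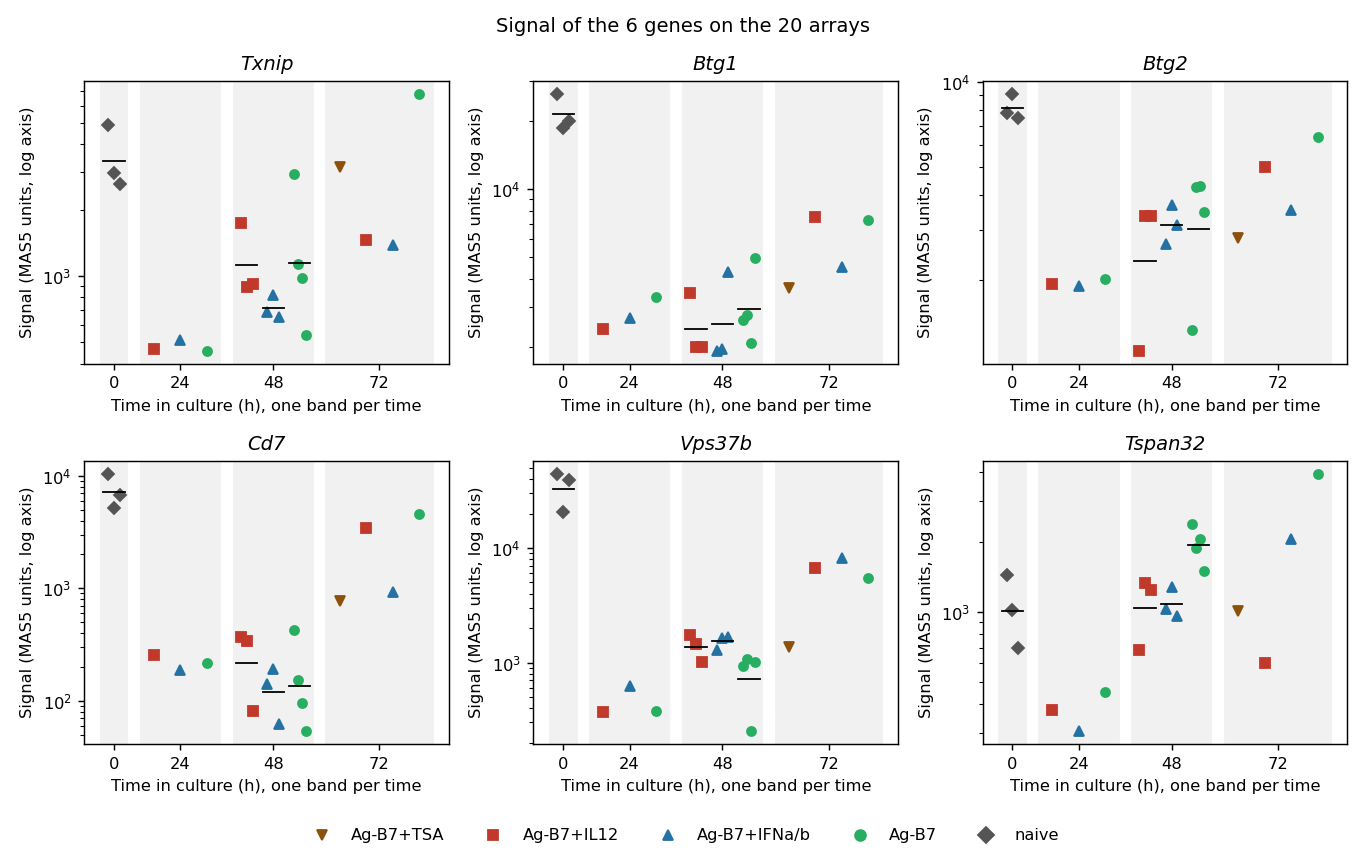
MAS5 signal (log axis) of each of the 6 genes on the 20 arrays against time in culture, with the arrays of each time spread within its shaded band by treatment. Points are arrays and lines are geometric means of replicated groups. Btg1, Btg2, Cd7 and Vps37b are below all 3 naive arrays on all 17 stimulated arrays, whereas Tspan32 at 48 h is highest in Ag-B7.

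Btg1 had the signal of a strongly expressed gene in naive cells and a low plateau over the first 48 h of stimulation. Its signals in naive cells were 26414, 18728 and 19960. At 24 h they were 2402 in Ag-B7+IL12, 2686 in Ag-B7+IFNa/b and 3319 in Ag-B7. At 48 h they were 3474, 1998 and 1995 in Ag-B7+IL12, 1917, 1952 and 4272 in Ag-B7+IFNa/b, and 2614, 2770, 2074 and 4962 in Ag-B7. The highest of these 13 stimulated arrays was far below the lowest naive array, and the 3 treatments overlapped one another. At 72 h the signals were 7531 in Ag-B7+IL12, 4496 in Ag-B7+IFNa/b, 7313 in Ag-B7 and 3645 in Ag-B7+TSA. All 4 arrays at 72 h stayed below the naive range. On the log2(signal + 46.4) scale, on which all log2 differences below are given, Ag-B7 at 48 h was -2.85 from naive cells, a signal 7.20-fold lower.

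Btg2, the other antiproliferative gene, lay closer to its naive level than Btg1 did. Its signals in naive cells were 7778, 9101 and 7470. At 24 h they lay close together, at 1931 in Ag-B7+IL12, 1893 in Ag-B7+IFNa/b and 2015 in Ag-B7. At 48 h they were 1119, 3368 and 3363 in Ag-B7+IL12, 2673, 3674 and 3119 in Ag-B7+IFNa/b, and 1321, 4265, 4305 and 3468 in Ag-B7. Replicate 1 was the lowest array in each of the 3 groups, and all 10 arrays were below the naive range. At 72 h the signals were 4996 in Ag-B7+IL12, 3544 in Ag-B7+IFNa/b, 6386 in Ag-B7 and 2803 in Ag-B7+TSA, all below the lowest naive array. Ag-B7 at 48 h was -1.40 from naive cells, or 2.64-fold lower.

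Txnip, the thioredoxin-binding arrestin, was lower than in naive cells at 24 h in every treatment and scattered widely afterwards. The brighter of its probe sets gave 4869, 2949 and 2632 in naive cells. At 24 h it gave 467 in Ag-B7+IL12, 510 in Ag-B7+IFNa/b and 457 in Ag-B7, the 3 lowest of its 20 values. At 48 h the signals were 1742, 890 and 925 in Ag-B7+IL12, 688, 818 and 652 in Ag-B7+IFNa/b, and 2918, 1135, 983 and 537 in Ag-B7. Replicate 1 of Ag-B7 reached into the naive range, and the other 9 arrays at 48 h were below it. At 72 h Ag-B7 had 6784, above every naive array, while Ag-B7+IL12 had 1456, Ag-B7+IFNa/b 1387 and Ag-B7+TSA 3138. Ag-B7 at 48 h was -1.50 from naive cells, or 2.83-fold lower. The dimmer Txnip probe set gave a similar difference at 48 h (-1.46), with signals of 396, 359, 727 and 280 in Ag-B7 against 797, 1577 and 1458 in naive cells. It did not have the high value at 72 h: its signals were 920 in Ag-B7+IL12, 618 in Ag-B7+IFNa/b, 598 in Ag-B7 and 683 in Ag-B7+TSA. The 2 probe sets of Txnip thus disagreed on the order of the treatments at 72 h.

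Vps37b had the greatest fold difference of the 6 between naive and 24 h cells. Its signals in naive cells were 44184, 20647 and 39246. At 24 h they were 371 in Ag-B7+IL12, 621 in Ag-B7+IFNa/b and 378 in Ag-B7. These levels were 79.0-, 49.4- and 77.8-fold below the naive mean. On the Ag-B7+IL12 and Ag-B7 arrays the difference was the most negative of the 6279 genes. Such a rank is favoured by the choice of genes for large falls from naive cells. At 48 h the signals were 1753, 1445 and 1001 in Ag-B7+IL12, 1294, 1650 and 1670 in Ag-B7+IFNa/b, and 936, 1077, 252 and 1017 in Ag-B7. Replicate 3 of Ag-B7 was far below the other 3 arrays of its group. At 72 h the signals were 6741 in Ag-B7+IL12, 8127 in Ag-B7+IFNa/b, 5470 in Ag-B7 and 1364 in Ag-B7+TSA. All 17 stimulated arrays were below the lowest naive array. Ag-B7 at 48 h was -5.42 from naive cells, or 42.9-fold lower.

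Cd7 came close to the floor of the array during stimulation. Its signals in naive cells were 10323, 5172 and 6770. At 24 h they were 255 in Ag-B7+IL12, 188 in Ag-B7+IFNa/b and 215 in Ag-B7. At 48 h they were 373, 338 and 81.7 in Ag-B7+IL12, 142, 191 and 62.6 in Ag-B7+IFNa/b, and 422, 153, 96.7 and 54.1 in Ag-B7. No stimulated array at these times came near the naive range, and the 3 treatments overlapped. Cd7 exceeded the 40th percentile of the array on 16 of 20 arrays, and each of the other 5 genes did so on all 20. At 72 h the signals were 3441 in Ag-B7+IL12, 927 in Ag-B7+IFNa/b, 4540 in Ag-B7 and 775 in Ag-B7+TSA, so Ag-B7 and Ag-B7+IL12 approached the lowest naive array. Ag-B7 at 48 h was -5.23 from naive cells, or 37.5-fold lower.

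Tspan32 went against its description as a gene lost on activation. Its signals in naive cells were 1449, 1015 and 696. At 24 h they were lower, at 378 in Ag-B7+IL12, 305 in Ag-B7+IFNa/b and 450 in Ag-B7. At 48 h they were 682, 1337 and 1237 in Ag-B7+IL12, 1031, 1279 and 961 in Ag-B7+IFNa/b, and 2405, 1887, 2065 and 1499 in Ag-B7. The 4 Ag-B7 arrays were all above the naive range, and the arrays with either cytokine overlapped it. At 72 h Ag-B7 had 3935, the highest of the 20 values, against 602 in Ag-B7+IL12, 2068 in Ag-B7+IFNa/b and 1006 in Ag-B7+TSA. Ag-B7 at 48 h was 0.91 above naive cells, or 1.88-fold higher. As deposited, the difference with a cytokine was 0.045 in Ag-B7+IL12 and 0.10 in Ag-B7+IFNa/b. It was 0.69 and 0.76 with each array centred on its median, and 1.48 and 1.81 with scaling to the spiked hybridisation controls, beside 1.60 and 2.54 in Ag-B7. The lower level at 24 h depended on the scaling: in Ag-B7 it was -1.09 as deposited and -0.24 with each array centred on its median.

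Across the genes, the course was a low level at 24 h, a similar level at 48 h for Btg1 and Cd7, and a higher level at 72 h in most cultures. At 24 h all 6 genes were at least 2-fold lower than in naive cells in each of the 3 treatments, where 30.6% of all genes were so in Ag-B7+IL12, 32.1% in Ag-B7+IFNa/b and 32.5% in Ag-B7. At 48 h, 4 of the 6 had Ag-B7 arrays entirely below the naive arrays, against 31.6% of all genes, and Tspan32 had them entirely above, against 24.4%. The counts of lower genes follow from how the genes were chosen, partly for large falls from naive cells. The higher level of Tspan32 at 48 h goes against that choice. With a cytokine, the differences from naive cells at 48 h were -3.13, -1.77, -1.53, -4.55 and -4.71 for Btg1, Btg2, Txnip, Vps37b and Cd7 in Ag-B7+IL12, and -3.07, -1.36, -2.16, -4.39 and -5.40 in Ag-B7+IFNa/b. Without naive replicate 2 the 6 Ag-B7 differences kept their signs, at -2.95, -1.32, -1.59, -5.76 and -5.46 for these 5 genes and 0.91 for Tspan32. Scaling to the spiked hybridisation controls shifted the median of all genes from -0.23 to 1.30, and Txnip and Btg2 in Ag-B7 then lay at 0.22 and 0.36 above naive cells. On that scale Btg1 (-1.07), Vps37b (-3.66) and Cd7 (-3.55) stayed lower. Levels are relative to the total labelled RNA of each array, and total RNA per cell was not measured.

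**Figure D2:**
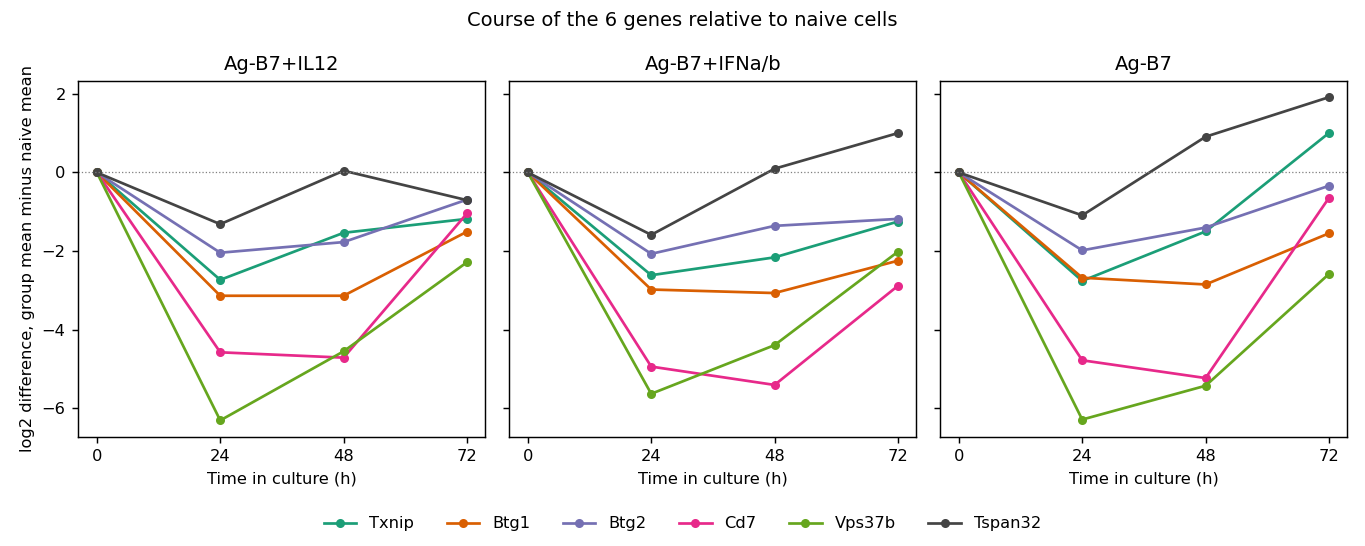
Difference of each group mean from the naive mean (log2 scale) against time in culture, for Ag-B7+IL12, Ag-B7+IFNa/b and Ag-B7. The 24 h and 72 h points are single arrays. Vps37b and Cd7 reach the lowest values, and Tspan32 in Ag-B7 is above 0 at 48 h and 72 h.

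From 24 h to 48 h the genes parted. Tspan32 was at least 2-fold higher at 48 h than at 24 h in all 3 treatments, by 1.36 in Ag-B7+IL12, 1.68 in Ag-B7+IFNa/b and 2.00 in Ag-B7. Vps37b was higher by 1.76, 1.24 and 0.86 in the same order, and Txnip by 1.20, 0.45 and 1.26. Btg1 differed by -0.09 in Ag-B7+IFNa/b, by -0.17 in Ag-B7 and by still less in Ag-B7+IL12, and Cd7 by -0.14 in Ag-B7+IL12, -0.47 in Ag-B7+IFNa/b and -0.45 in Ag-B7. The share of all genes at least 2-fold higher was 4.98% in Ag-B7+IL12, 3.31% in Ag-B7+IFNa/b and 4.09% in Ag-B7. Of the 6 genes, 3, 2 and 2 were. The counts in Ag-B7+IL12 and Ag-B7 include Txnip by its brighter probe set only. Each 24 h value is 1 array, so these differences have no replicate check.

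Whether an added cytokine changed the 6 genes was tested at 48 h, in 1 limma model of the 13 replicated arrays with Benjamini-Hochberg adjustment over 6279 genes. The choice of the genes used signals of stimulated cells, without a record of which groups, so any of these 10 stimulated arrays may have entered it. None of the 6 genes was called at an adjusted p below 0.05 in any of the 3 comparisons. The share of all genes called was 0.621% for Ag-B7+IL12 against Ag-B7, 0.43% for Ag-B7+IFNa/b against Ag-B7 and 0.94% for Ag-B7+IL12 against Ag-B7+IFNa/b. At an unadjusted p below 0.05, 2 of the 6 genes (Vps37b and Tspan32) passed in each comparison with Ag-B7 and 0 between the cytokines, against 5.8%, 4.55% and 4.83% of all genes. The p-values cover the spread between arrays that the labels call biological replicates. Groups of 3 or 4 arrays leave wide intervals, given here at 95%.

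Tspan32, the tetraspanin, had the lowest p-values of the 6 genes in the comparisons with Ag-B7. Its signal averaged 1085 ± 353 in Ag-B7+IL12 (SD, n = 3), 1090 ± 167 in Ag-B7+IFNa/b (SD, n = 3) and 1964 ± 377 in Ag-B7 (SD, n = 4). The arrays with either cytokine were all below the 4 Ag-B7 arrays, as those of 3.62% and 3.46% of all genes were. The difference was -0.86 ± 0.27 (SE, 95% interval -1.44 to -0.29) for Ag-B7+IL12, with an adjusted p of 0.323 and an unadjusted p of 0.00546 in limma. For Ag-B7+IFNa/b it was -0.81 ± 0.27 (interval -1.39 to -0.24), with an adjusted p of 0.541. The cytokines differed from each other by -0.051 ± 0.29 (interval -0.66 to 0.56).

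Vps37b differed in the other direction, also without passing the adjusted test. Its signal averaged 1400 ± 378 in Ag-B7+IL12 (SD, n = 3), 1538 ± 211 in Ag-B7+IFNa/b (SD, n = 3) and 821 ± 383 in Ag-B7 (SD, n = 4). The 3 Ag-B7+IFNa/b arrays were all above the Ag-B7 arrays, as for 3.28% of all genes, and 1 Ag-B7+IL12 array overlapped them. The differences were 0.87 ± 0.38 for Ag-B7+IL12 (adjusted p = 0.756, limma) and 1.03 ± 0.38 for Ag-B7+IFNa/b (adjusted p = 0.710, limma). Without the low replicate 3 of Ag-B7 they were 0.42 and 0.58. The cytokines differed by -0.16 (interval -1.03 to 0.71).

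The antiproliferative genes, Txnip and Cd7 gave smaller or more scattered differences. Btg1 differed by -0.29 ± 0.31 in Ag-B7+IL12 and by -0.22 ± 0.31 in Ag-B7+IFNa/b from Ag-B7. Btg2 differed by -0.37 ± 0.38 in Ag-B7+IL12 and by 0.043 ± 0.38 in Ag-B7+IFNa/b, and its signal varied from 1119 to 4305 over the 10 arrays. Txnip differed by -0.034 ± 0.40 in Ag-B7+IL12 and by -0.66 ± 0.40 in Ag-B7+IFNa/b (interval -1.51 to 0.19). Its 3 Ag-B7+IL12 arrays were above the 3 Ag-B7+IFNa/b arrays, as for 6.05% of all genes, with a difference of 0.62 ± 0.43 (adjusted p = 0.999, limma). The dimmer Txnip probe set gave -0.13 for that comparison. Cd7 differed by 0.52 ± 0.49 in Ag-B7+IL12 and by -0.17 ± 0.49 in Ag-B7+IFNa/b, with an interval of -0.42 to 1.80 between the cytokines. At 24 h none of the 6 genes differed 2-fold between either cytokine and Ag-B7 on the single arrays, where 1.27% and 1.21% of all genes were lower and 2.15% and 1.69% higher by that much in Ag-B7+IL12 and Ag-B7+IFNa/b.

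**Figure D3:**
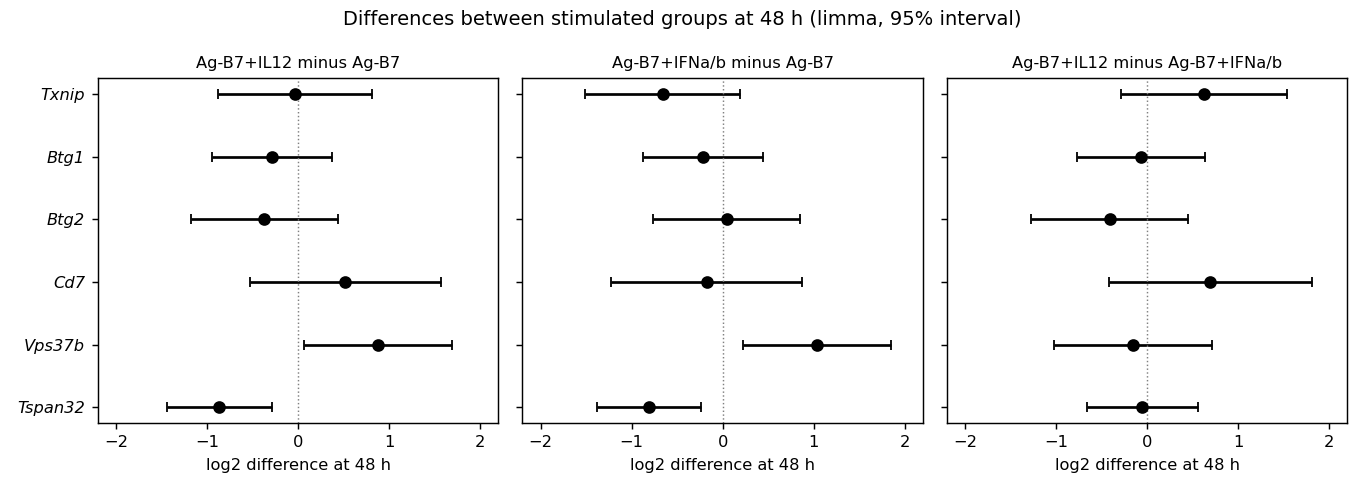
Differences between the stimulated groups at 48 h for each gene, on the log2 scale, from limma; points are estimates and bars are 95% intervals. The intervals of Tspan32 and Vps37b leave out 0 in both comparisons with Ag-B7 before adjustment, and every interval between the cytokines includes 0.

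At 72 h most of the genes were higher than at 48 h. These comparisons set 1 array at 72 h against the mean of the 48 h arrays and have no replicate check, and the 48 h arrays may have entered the choice of the genes. Cd7 was 24.0-fold higher at 72 h in Ag-B7 (4.58 on the log2 scale), 12.7-fold higher in Ag-B7+IL12 (3.67) and 5.74-fold higher in Ag-B7+IFNa/b (2.52). At 48 h its signal was not above the 40th percentile on 1 of 3 Ag-B7+IL12, 1 of 3 Ag-B7+IFNa/b and 2 of 4 Ag-B7 arrays, so the size of these folds depends on the pseudocount. The fold in Ag-B7 was 33.2 with a pseudocount of 1 and 13.2 with 200. Vps37b was 4.81-fold higher in Ag-B7+IL12, 5.19-fold in Ag-B7+IFNa/b and 7.17-fold in Ag-B7. For these 2 genes, and also for Btg1, the 72 h array was above every 48 h array of its treatment in Ag-B7+IL12, Ag-B7+IFNa/b and Ag-B7.

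The rises of the other 4 genes were smaller than those of Cd7 and Vps37b in each treatment. Btg1 was 3.09-fold higher in Ag-B7+IL12, 1.77-fold in Ag-B7+IFNa/b and 2.46-fold in Ag-B7, and Btg2 was 2.11-, 1.13- and 2.09-fold higher in the same order. By its brighter probe set, Txnip was 1.28-fold higher in Ag-B7+IL12, 1.88-fold in Ag-B7+IFNa/b and 5.67-fold in Ag-B7. The dimmer Txnip probe set gave another order of treatments. Its mean log2 value was 8.99 at 48 h and 9.92 at 72 h in Ag-B7+IL12. It was 9.12 and 9.38 in Ag-B7+IFNa/b, and 8.85 and 9.33 in Ag-B7. Tspan32 differed by -0.75 on the log2 scale in Ag-B7+IL12, where its 72 h signal of 602 lay below all 3 arrays at 48 h, and was 1.87-fold higher in Ag-B7+IFNa/b and 2.01-fold higher in Ag-B7. Thus 4, 2 and 6 of the 6 genes were at least 2-fold higher in Ag-B7+IL12, Ag-B7+IFNa/b and Ag-B7, against 9.3%, 6.75% and 9.16% of all genes. The 6 in Ag-B7 include Txnip by its brighter probe set, as the dimmer one rose less than 2-fold. With each array centred on its median, Btg1 (0.95), Btg2 (0.71) and Tspan32 (0.66) in Ag-B7 were under 2-fold. Centring also lowered the values in Ag-B7+IL12 (Cd7 to 3.33), and Btg2 there was then under 2-fold as well.

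**Figure D4:**
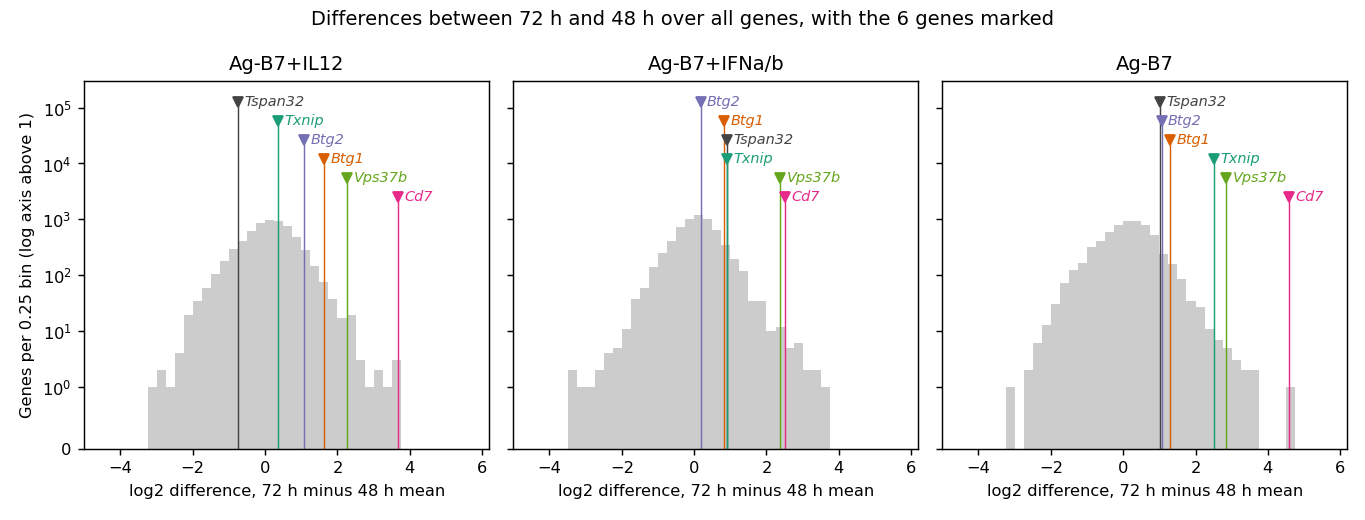
Number of genes by their log2 difference between the 72 h array and the 48 h mean (grey bars of width 0.25, log axis above 1), for Ag-B7+IL12, Ag-B7+IFNa/b and Ag-B7; coloured lines mark the 6 genes. Cd7 stands at the right edge in Ag-B7 (4.58) and in Ag-B7+IL12 (3.67), and Tspan32 is left of 0 in Ag-B7+IL12.

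The 3 additions were set against the single Ag-B7 array at 72 h, which all 3 comparisons share. In Ag-B7+IL12, Tspan32 was 6.14-fold lower and Txnip 4.55-fold lower, and the other 4 genes were within 2-fold. The Tspan32 difference had rank 5 among the 6279 genes, from the most negative. In Ag-B7+IFNa/b, Txnip was 4.76-fold lower and Cd7 4.71-fold lower, and the other 4 were within 2-fold. In Ag-B7+TSA, 5 genes were at least 2-fold lower: Cd7 by 5.58-fold, Vps37b by 3.91-fold, Tspan32 by 3.78-fold, Btg2 by 2.26-fold and Txnip by 2.15-fold, and Btg1 was just inside the limit at 1.99-fold. The shares of all genes at least 2-fold lower were 4.14%, 3.57% and 8.97% in Ag-B7+IL12, Ag-B7+IFNa/b and Ag-B7+TSA. The Txnip differences come from the brighter probe set alone, as the dimmer one was no higher in Ag-B7.

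Ag-B7+TSA was also set against the cytokine arrays at 72 h. Vps37b was 4.81-fold lower than in Ag-B7+IL12 and 5.79-fold lower than in Ag-B7+IFNa/b. Txnip was 2.12- and 2.22-fold higher in the same order by its brighter probe set. Its dimmer one gave 683 in Ag-B7+TSA, against 920 in Ag-B7+IL12 and 618 in Ag-B7+IFNa/b, and thus no such difference. Cd7 was 4.25-fold lower than in Ag-B7+IL12, and its signal of 775 was near the 927 of Ag-B7+IFNa/b. At least 2-fold lower were 3 of the 6 genes against Ag-B7+IL12 and 2 against Ag-B7+IFNa/b, where 9.87% and 9.08% of all genes were. At least 2-fold higher was 1 of the 6 genes in each comparison, Txnip by its brighter probe set, where 8.6% and 7.31% of all genes were. The Ag-B7+TSA level of Vps37b, 1364, was within the range of the 48 h arrays of both cytokine groups.

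The genes whose group means followed each of the 6 most closely were ranked by Pearson's r over the 11 group means. These correlations describe few points that share arrays and one large step from naive to stimulated cells. The closest to Btg1 were 1110032A03Rik (0.991), Zfp36l2 (0.981) and Klk8 (0.979), and to Btg2 Wdr13 (0.986), Cd37 (0.971) and Tut7 (0.971). Zfp36l2 encodes a protein that promotes decay of mRNAs with AU-rich elements. Its mean signal was 17596 in naive cells, 3792, 4109 and 5210 at 24 h in Ag-B7+IL12, Ag-B7+IFNa/b and Ag-B7, and 9964, 6871 and 11048 at 72 h in the same order. The closest to Txnip were Aamdc (0.961), Cast (0.961) and Sesn1 (0.959). The mean signal of Sesn1, a stress-induced inhibitor of mTORC1, was highest in Ag-B7 at 72 h (3579), against 1975 in naive cells. All correlations with Txnip used its brighter probe set, whose high value in Ag-B7 at 72 h the dimmer one lacked. The closest to Cd7 were Med12 (0.980), Mcrip1 (0.979) and Limk2 (0.977), and to Vps37b Pou6f1 (0.978), Tbc1d1 (0.978) and Plxnb2 (0.971). Tspan32 had the least close companions, Cdan1 (0.935), Ephx1 (0.931) and Lbr (0.922). Over the 10 stimulated groups alone, Zfp36l2 was the closest to Btg1 (0.992), Wdr13 to Btg2 (0.980), Prkcq to Cd7 (0.980), Rap2b to Txnip (0.989), Dnajc4 to Vps37b (0.971) and Tug1 to Tspan32 (0.941). Among the 6 genes, the highest r over 11 groups was that of Btg1 and Cd7 (0.93), and the lowest that of Btg1 and Tspan32 (0.28).

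The pathways around the 6 genes were described in Ag-B7 at 48 h against naive cells, where 26.1% of all genes rose and 35.6% fell (limma, adjusted p below 0.05) and the median of all genes was -0.23. All lists were chosen with earlier results of these data known, so their counts are descriptions. Of 32 tested genes of the other naive-state and quiescence list, 2 rose and 19 fell, with a median of -1.31. Klf2, a transcription factor of naive T cells that maintains their homing receptors, fell by 4.08 ± 0.45 (SE). Il7r, the IL-7 receptor chain, fell by 3.74 ± 0.35, and Klf3 fell by 3.64 ± 0.50. Ddit4, which encodes an inhibitor of mTORC1, rose by 4.47 ± 0.44, against the direction of the list. Without naive replicate 2 the counts were 2 and 22. With each array centred on its median they were 6 and 14, and with spike-in scaling 13 and 4.

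The partners of BTG1 and BTG2 were mixed. Of 12 tested genes of the BTG/TOB family and the CCR4-NOT and related poly(A) machinery, 3 rose and 4 fell, with a median of -0.22. Prmt1, an arginine methyltransferase that binds BTG proteins, rose by 2.51 ± 0.25, and Pabpc4, a poly(A)-binding protein, by 2.39 ± 0.20. Cnot4 fell by 1.55 ± 0.29 and Cnot6l, a deadenylase subunit, fell by 1.33 ± 0.40. In the thioredoxin and arrestin list around Txnip, 10 of 16 rose and 3 fell, with a median of 0.86. Hk2, hexokinase, rose by 3.37 ± 0.29, Slc2a1, the glucose transporter that TXNIP removes from the surface, by 3.04 ± 0.33, and Txn1, thioredoxin, by 2.65 ± 0.16. Srxn1, sulfiredoxin, fell by 2.41 ± 0.51.

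Of 19 tested genes of the ESCRT machinery around VPS37B, 3 rose and 6 fell, with a median of -0.32. Hgs, an ESCRT-0 subunit, fell by 1.43 ± 0.22 and Chmp3, of ESCRT-III, fell by 1.09 ± 0.24, while Chmp6 rose by 1.09 ± 0.25 and Chmp2a by 1.00 ± 0.27. Of 14 other tetraspanins, 5 rose and 8 fell, with a median of -0.61. Tspan4 rose by 3.42 ± 0.24 and Tspan31 by 2.19 ± 0.25, and Tspan9 fell by 2.19 ± 0.39 and Cd37, a leukocyte tetraspanin, fell by 1.61 ± 0.22. Of 17 T cell surface receptors listed beside Cd7, 4 rose and 5 fell, with a median of -0.04. Cd160 rose by 2.78 ± 0.39 and Cd48 by 1.00 ± 0.23, and Cd96 fell by 1.47 ± 0.26 and Cd4, a marker of another T cell lineage, fell by 1.83 ± 0.57. Medians of the BTG, ESCRT, tetraspanin and surface lists turned positive with median centring (0.50, 0.40, 0.12 and 0.69) and with spike-in scaling. Cell cycle genes rose in 23 of 25 cases and fell in none, with a median of 2.35, among them Cdk1 (5.61 ± 0.17), Top2a (5.42 ± 0.18), Mki67 (5.21 ± 0.23) and Birc5 (4.84 ± 0.22).

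**Figure D5:**
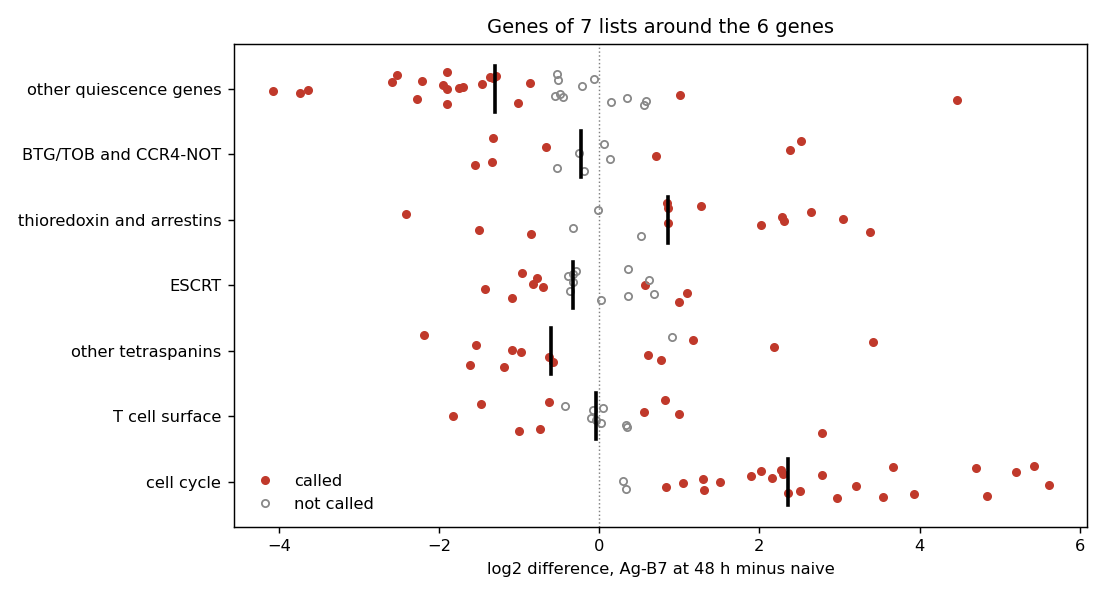
Difference of Ag-B7 at 48 h from naive cells (log2 scale) for every tested gene of 7 lists around the 6 genes; filled points passed limma at an adjusted p below 0.05, open points did not, and black bars are list medians. The quiescence list lies mostly left of 0 (19 of 32 fell), and the cell cycle list lies right of it (23 of 25 rose).

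Between Ag-B7+IL12 and Ag-B7+IFNa/b at 48 h, 2 of the 134 tested genes of the 7 lists were called (1.49%), beside 0.94% of all genes. Slfn2, a schlafen gene needed for T cell quiescence in mice, was lower in Ag-B7+IL12 than in Ag-B7+IFNa/b by 1.60 on the log2 scale (adjusted p = 0.0105, limma). Satb1, a chromatin organiser of T cells, was higher in Ag-B7+IL12 than in Ag-B7+IFNa/b by 1.30 (adjusted p = 0.0389, limma). In the comparisons of Ag-B7+IL12 and Ag-B7+IFNa/b with Ag-B7 0 of the 134 were called by limma, where 0.621% and 0.43% of all genes were, and 14 and 6 had an unadjusted p below 0.05. The medians of the 32 quiescence genes were -0.13 for Ag-B7+IL12 and -0.18 for Ag-B7+IFNa/b against Ag-B7, and 0.07 between the cytokines, beside medians of -0.0077, 0.0026 and -0.0076 over all genes.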

How the data were processed

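The authors deposited an intensity for each probe set on each array, a linear MAS5 signal per the submitters' processing notes. The version of MAS5 was not given in the sources used here. Per the labels' protocols, 10 ug of total RNA was the starting material for biotinylated cRNA. Of 12488 probe sets, 10833 had 1 gene symbol in the platform annotation, 396 had several and 66 were controls. The probe set with the highest mean stood for each of the 8251 genes. Levels of different probe sets were not compared. Values were transformed as log2(value + 46.4), the pseudocount being the median over arrays of each array's 20th percentile, so folds of dim genes are understated. A gene was kept (6279) if 3 or more of the 13 replicated arrays had it above the 40th percentile. Group means of these arrays were fitted in limma 3.58.1 (R 4.3.3) with a variance trend, 2-sided tests and Benjamini-Hochberg adjustment at 0.05. Residual degrees of freedom were 9, and the median residual SD was 0.372. The code was tested on simulated data. Single arrays were described by differences of at least 2-fold, without a test. The 6 genes and all lists were chosen with earlier results of these data known. From each list, up to 4 called genes with the largest difference were named, and for each of the 6 genes the 3 with the highest correlation. Same-numbered replicates of Ag-B7 and Ag-B7+IL12 at 48 h deviated together over genes (r = 0.280, 0.279 and 0.276). Those of Ag-B7 and Ag-B7+IFNa/b (0.11, -0.04 and -0.10) did not, and those of naive cells and Ag-B7+IL12 gave 0.27, 0.07 and -0.04. Arrays with different numbers were not compared and the labels name no shared batch, so whether the numbers pair arrays is not known. The main model held no pairing. Alternatives covered array scaling, pseudocount, filter, variance model, probe set, samples in the fit, replicates left out and a replicate block.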

Additional observations from a re-analysis of the deposited data

Results flagged for a closer look

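Vps37b in Ag-B7 at 48 h had 1 array far from the other 3. Replicate 3 had a signal of 252, against 936, 1077 and 1017 on replicates 1, 2 and 4, and its gap to the nearest array was 0.899 of the group's range on the log2 scale, above Dixon's 95% critical value for 4 samples. Of 7 probe sets tested in this group, 1 was marked, and chance marks about 1 in 20 groups. The cause was not tested.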

How the results depend on the processing

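No difference of the 6 genes between stimulated groups at 48 h became called in 321 values under alternatives, of which 20 changed sign, and the lowest adjusted p was 0.144 (Tspan32, Ag-B7+IFNa/b against Ag-B7). The dimmer Txnip probe set gave 0.14 for Ag-B7+IL12 and 0.27 for Ag-B7+IFNa/b against Ag-B7, and -0.13 between the cytokines. With the replicate number as a block, 35 genes were called for Ag-B7+IL12 and 40 for Ag-B7+IFNa/b against Ag-B7, and 68 between the cytokines, against 39, 27 and 59 without it; the block changed no call of the 6 genes and turned Btg1 for Ag-B7+IFNa/b to 0.031; replicate 4 of Ag-B7, which has no partner, carries no weight in it. For Ag-B7+IL12 against Ag-B7, 24 genes were called with median centring, 16 with spike-in scaling and 25 without a variance trend; the cause was not tested. Leaving out 1 array gave 16 to 31 called genes there, 14 to 32 for Ag-B7+IFNa/b and 45 to 51 between the cytokines. It moved Txnip between -0.38 and 0.40, Btg2 between -0.76 and 0.15 and Cd7 between 0.21 and 1.07 for Ag-B7+IL12. For Ag-B7+IFNa/b it moved Btg1 between -0.59 and 0.031, Btg2 between -0.35 and 0.21, Cd7 between -0.48 and 0.26 and Txnip between -1.01 and -0.23. Between the cytokines it moved Btg1 between -0.33 and 0.31, Btg2 between -0.67 and 0.10, Tspan32 between -0.22 and 0.24, Cd7 between 0.37 and 1.24 and Vps37b between -0.33 and 0.057. Against naive cells, Tspan32 ranged from -0.21 to 0.34 in Ag-B7+IL12 and from -0.16 to 0.35 in Ag-B7+IFNa/b. Spike-in scaling turned 4 differences from naive cells positive: Txnip in Ag-B7+IL12 (0.0031) and Ag-B7 (0.22), and Btg2 in Ag-B7+IFNa/b (0.49) and Ag-B7 (0.36). The split of called genes in Ag-B7 at 48 h against naive cells was 1640 higher and 2236 lower as deposited, 1941 and 1635 with quantile normalization, 2584 and 944 with median centring, and 3781 and 95 with spike-in scaling. Alternatives for the other cytokine groups against naive cells and for the lists were added after seeing the data. The number of arrays limits the precision throughout, and Cd7 at 48 h was near the floor of the signal.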
